A study of Drosophila melanogaster with 4 samples.

Results

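The genes described here are 9 that run apoptosis in *Drosophila*: the death inducers *hid*, *rpr*, *grim* and *skl*, the caspases *Dronc*, *Drice* and *Dcp-1*, the caspase adaptor *Dark*, and the transcription factor *p53*. They were chosen by symbol, with earlier results of these data known, and their level was read in single cells of *scrib* mutant wing imaginal discs at each age and in cells with and without RNA of *Mmp1*. Of the 9, 7 were listed in all 4 files, which shared 7845 genes out of 9074 listed in any. *skl* was listed on days 8 and 14 only, and *grim* was listed at no age, so *grim* has no value here.

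Wing imaginal discs are larval epithelia from which the adult wing grows. They were taken at 4, 5, 8 and 14 days after egg laying from larvae labelled scrib-/-FRT82B, the homozygous progeny of the strain scrib[1]FRT82B/TM6B. *scrib* encodes a protein that keeps epithelial cells polarized, and discs without it overgrow during an extended larval life. Each age was 1 library made with the 10x method from discs dissociated with trypsin, so all cells carried the mutation, no age had a replicate, and no control discs were analysed here. Wherever ages are compared, the age of a disc and its library cannot be told apart.

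In a living cell the caspases are held inactive by inhibitor of apoptosis proteins, chiefly the product of *Diap1*. The proteins made from *hid*, *rpr*, *grim* and *skl* bind Diap1 through a short motif at their start and free the caspases. Dronc, the initiator caspase, is then activated on a scaffold built from Dark, and it cleaves the effector caspases Drice and Dcp-1, which take the cell apart. *p53* encodes a factor that switches on *rpr* and *hid* after DNA damage, and the JNK pathway can raise both genes in stressed discs. *Mmp1*, a matrix metalloproteinase gene, and *puc*, a JNK phosphatase gene, are targets of that pathway, and the study read *Mmp1* as a reporter of it.

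For days 4, 5, 8 and 14 there were 3785, 6457, 3104 and 1110 cells, with 22458962 to 134888985 unique molecular identifiers (UMIs, each a captured RNA molecule) and a median of 18298.5 to 23326 UMIs per cell. A pair of libraries shared between 5 and 34 cell barcodes. All 8 epithelium markers sought were listed at every age, no marker of hemocytes and no mitochondrial gene was listed, and 3.46% to 5.80% of cells carried UMIs of at least 4 of 7 myoblast markers. The day 14 library stood apart from the others: ribosomal protein genes took 40.8% of its UMIs against 47.7% to 49.5% at the other ages, and the 9 or 10 heat shock genes listed summed to 128.8 UMIs per 10000 there against 63.5 to 82.9. Whether these differences play a part in the values of day 14 was not tested.

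The death inducers lie together on chromosome arm 3L in the Ensembl annotation of BDGP6, all on the minus strand: *hid* at 18167745 to 18185641, *grim* at 18302719 to 18304417, *rpr* at 18397535 to 18398435 and *skl* at 18438561 to 18439942, a stretch of 272198 bases in all. *hid* and *rpr* overlap no other annotated gene. The mean level of *hid* over the cells of days 4, 5, 8 and 14 was 0.646, 0.510, 0.439 and 0.976 UMIs per 10000, with 95% Poisson intervals of 0.630 to 0.663, 0.498 to 0.522, 0.423 to 0.456 and 0.936 to 1.02. It was thus lowest on day 8 and highest on day 14, and the 4 intervals, which cover counting error only, did not overlap. The mean of *rpr* at the same ages was 0.921, 0.793, 0.845 and 1.45 UMIs per 10000 (0.901 to 0.941, 0.777 to 0.808, 0.822 to 0.869 and 1.40 to 1.50). Its 4 intervals did not overlap either, with day 5 lowest and day 14 highest.

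*hid* and *rpr* were found in many cells, not in a small set. At least 1 UMI of *hid* was present in 60.2%, 50.1%, 44.4% and 69.3% of cells at days 4, 5, 8 and 14. With every cell thinned to 12000 UMIs the shares were 43.3%, 37.5%, 32.9% and 56.5% at the same ages, so their order held at equal depth. Shares of *rpr* were 71.8%, 63.7%, 64.6% and 81.0%, or 55.4%, 50.5%, 53.5% and 70.5% after thinning. The gauge for free RNA was *twi*, a myoblast gene that disc epithelium lacks: 1.04%, 1.37%, 1.54% and 2.43% of cells without myoblast markers had a UMI of it on days 4, 5, 8 and 14, at a median of 18428.5 to 23567.5 UMIs per cell, against 94.1% to 97.6% of cells with those markers, at a median of 16379 to 18756.5. *twi* comes from few cells, so its stray RNA cannot stand for that of genes found in as many cells as *hid* and *rpr*. Cells with myoblast markers had a *rpr* UMI in 38.2%, 40.2%, 46.7% and 71.4% of cases on days 4, 5, 8 and 14. For *hid* the shares were 3.82%, 8.17%, 15% and 38.1%. How much of this was free RNA was not tested. The tenth of cells with most *hid* held 42.0%, 44.2%, 48.0% and 34.9% of its signal on days 4, 5, 8 and 14.

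*skl* had 12 UMIs in 8 of 1110 cells on day 14 and 8 UMIs in 7 of 3104 cells on day 8. Its day 14 mean was 0.00616 UMIs per 10000 (0.00318 to 0.0108) and its day 8 mean was 0.00152 (0.000654 to 0.00299). The day 14/day 8 log2 ratio was 2.02, with a counting half-width of 1.29. On day 14, 7 of the 12 UMIs fell in the 42 cells with myoblast markers, and 9.52% of those cells had one (95% Clopper-Pearson interval 2.66% to 22.6%) against 0.375% of the other 1068 cells (0.102% to 0.956%). The most *skl* UMIs in any day 14 cell was 4, in a cell with myoblast markers, so that split rests on very few cells. On day 8 the cells with myoblast markers held 2 of the 8 UMIs.

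The caspases did not share a course. *Dronc* (3L, 9968479 to 9971002, plus strand) had means of 0.103, 0.110, 0.164 and 0.228 UMIs per 10000 at days 4, 5, 8 and 14 (0.0964 to 0.109, 0.105 to 0.116, 0.154 to 0.174 and 0.209 to 0.249). Days 4 and 5 overlapped within counting error, and each later age was above the one before it. *Drice* (3R, 29799658 to 29801584, plus strand), the main effector caspase, had 0.348, 0.381, 0.369 and 0.342 UMIs per 10000 on days 4, 5, 8 and 14. The intervals of days 4, 8 and 14 overlapped, and day 5 lay above day 4 by 0.13 on the log2 scale (counting half-width 0.06). *Dcp-1* (2R, 23551313 to 23553547, plus strand), the second effector caspase, had 0.242, 0.247, 0.326 and 0.463 UMIs per 10000 at those ages, so days 4 and 5 were alike within counting error and days 8 (0.312 to 0.340) and 14 (0.435 to 0.492) stood above them. It overlaps *pita* on the other strand, and the sources used here do not say if counting used strand.

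*Dark* (2R, 17020027 to 17026703, plus strand) had only 254, 410, 243 and 132 UMIs on days 4, 5, 8 and 14, and no cell held over 3 of them. Its mean was 0.0298, 0.0314, 0.0375 and 0.0566 UMIs per 10000, and the interval of day 14 (0.0474 to 0.0671) lay above those of the other ages. *p53* (3R, 23049657 to 23054082, minus strand) went the other way, with 0.153, 0.136, 0.112 and 0.119 UMIs per 10000 at the 4 ages (0.145 to 0.161, 0.130 to 0.142, 0.104 to 0.121 and 0.105 to 0.134). Days 8 and 14 overlapped and both lay below day 4. *Dark* overlaps asRNA:CR44390 and *p53* overlaps asRNA:CR46089 and *Gr94a*, each on the other strand.

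**Figure D1:**
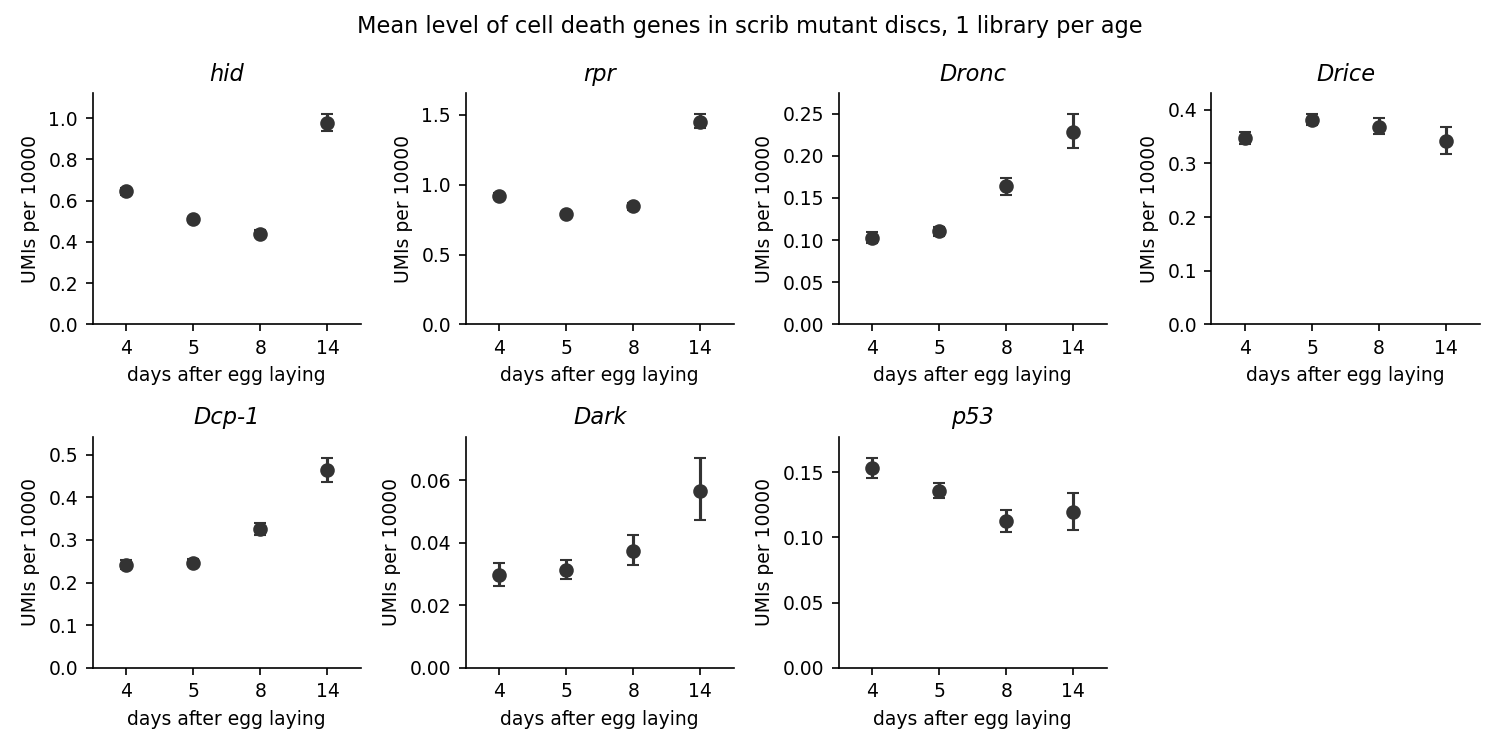
Mean UMIs per 10000 of each gene (y axis, from 0) in the cells of the library of each age (x axis, days after egg laying); bars are 95% Poisson intervals of the UMI sum and cover counting error only. *hid*, *rpr*, *Dronc*, *Dcp-1* and *Dark* are highest on day 14, *Drice* stays between 0.342 and 0.381, and *p53* is highest on day 4 at 0.153.

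After thinning to 12000 UMIs, *Dronc* was found in 11.2%, 12.7%, 16.8% and 23.2% of cells on days 4, 5, 8 and 14, *Dcp-1* in 24.1%, 25.3%, 30.9% and 41.5%, and *Dark* in 2.71%, 3.82%, 4.09% and 6.04%. For these 3 genes the share kept the order of the means. *Drice* was found in 34.3%, 36.4%, 35.1% and 32.2% of thinned cells and *p53* in 16.3%, 14.6%, 12.0% and 13.2%.

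Set against day 4, day 14 was higher for 5 of the 7 genes and lower for 2. On the log2 scale the ratio of these ages was 1.15 for *Dronc* (counting half-width 0.15), 0.94 for *Dcp-1* (0.11), 0.93 for *Dark* (0.30), 0.66 for *rpr* (0.06) and 0.60 for *hid* (0.07). It was -0.02 for *Drice* (0.11) and -0.36 for *p53* (0.19). *Dronc* alone was at least 2-fold higher on day 14, which is 1 of 7 genes, against 19.3% of 7025 genes that reached 0.02 UMIs per 10000 on one of those days. No member was at least 2-fold lower, against 2.06% of all genes. The median log2 ratio of the members was 0.66 and that of all genes tested 0.37, so most genes were higher per 10000 on day 14.

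Among 2453 better expressed genes, which reached 0.5 UMIs per 10000 on one of those days, the median was 0.19. Relative to that shift *Dronc* stood at 0.96, *Dcp-1* at 0.74, *Dark* at 0.73, *rpr* at 0.46, *hid* at 0.40, *Drice* at -0.22 and *p53* at -0.55 on the log2 scale. With the UMIs of ribosomal protein genes left out of the total, *Dronc* had 0.93, *hid* 0.34 and *rpr* 0.39. There was 1 library per age, so none of these differences was tested.

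The higher levels of *hid* and *rpr* were seen after day 8. Day 14 over day 8 gave 1.15 for *hid* (half-width 0.08) and 0.78 for *rpr* (0.06). Of the 7 members listed at every age, *hid* was the 1 past 2-fold in that pair, where 7.16% of 7083 genes were at least 2-fold higher and 0.791% lower. Day 8 over day 4 gave -0.56 for *hid* (0.07) and -0.12 for *rpr* (0.05), and no member was past 2-fold, against 6.12% of genes higher and 1.19% lower. *Dronc* and *Dcp-1* were already higher between the middle ages: day 8 over day 5 gave 0.57 for *Dronc* (0.11) and 0.40 for *Dcp-1* (0.08), while *hid* gave -0.22 (0.06). No member was past 2-fold there, against 4.5% of genes higher and 0.843% lower. Day 5 over day 4 gave -0.34 for *hid* (0.05) and -0.22 for *rpr* (0.04), again with no member past 2-fold, against 0.612% of genes higher and 0.119% lower.

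Cells with myoblast markers differed from the other cells of the same library in several members. Their mean of *hid* was 0.0335, 0.0556, 0.109 and 0.435 UMIs per 10000 at days 4, 5, 8 and 14, from 9, 46, 33 and 38 UMIs in 131, 306, 180 and 42 cells. The other cells had 0.668, 0.533, 0.459 and 0.998. The log2 ratios, cells with myoblast markers over the others, were -4.32, -3.26, -2.08 and -1.20 (half-widths 0.94, 0.42, 0.50 and 0.46). The gap was thus widest in the youngest library. The 8 epithelium markers summed to 2.61, 3.26, 4.46 and 10.0 UMIs per 10000 in cells with myoblast markers at days 4, 5, 8 and 14, against 10.5, 10.3, 12.9 and 17.4 over all cells, so that sum was higher in each older library as the gap was smaller. Its part in the gap was not tested. A *hid* UMI was found in 62.3%, 52.2%, 46.2% and 70.5% of the other cells on days 4, 5, 8 and 14. The shares in cells with myoblast markers were 3.82%, 8.17%, 15% and 38.1%. *rpr* was lower in these cells too, with 0.400, 0.376, 0.462 and 0.890 UMIs per 10000 against 0.940, 0.813, 0.869 and 1.47 in the other cells.

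*Dcp-1* had nearly the same level in both kinds of cell, with 0.249, 0.281, 0.323 and 0.431 UMIs per 10000 in cells with myoblast markers and 0.241, 0.245, 0.326 and 0.464 in the others. *Drice* had 0.188, 0.186 and 0.201 UMIs per 10000 in cells with myoblast markers on days 4, 5 and 8 against 0.353, 0.391 and 0.379 in the others, and 0.352 against 0.342 on day 14. *Dronc* was also lower in cells with myoblast markers on days 4, 5 and 8, with log2 ratios of -1.64, -1.01 and -0.93 (half-widths 0.95, 0.48 and 0.52). On day 14 it had -0.02 (0.66). *p53* had -0.77, -0.83, -0.09 and -0.23 on days 4, 5, 8 and 14 (0.59, 0.40, 0.50 and 0.96). These differences were not tested. Without the cells with myoblast markers, day 14 over day 4 was 0.58 for *hid*, 0.65 for *rpr* and 1.12 for *Dronc*.

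The members were next compared between cells of the same library with and without *Mmp1* RNA. A cell was called Mmp1-positive with at least 1 UMI of *Mmp1*, and 2020, 3137, 1298 and 672 cells were so on days 4, 5, 8 and 14, against 1765, 3320, 1806 and 438 Mmp1-negative cells. Between 20.5% and 24.4% of cells had exactly 1 such UMI, so the line runs through a range and does not part 2 kinds of cell. The Mmp1-positive cells were deeper, with a median of 26793, 22667, 20072.5 and 19794 UMIs against 20141, 16750.5, 17090 and 17785 in Mmp1-negative cells. They held fewer cells with myoblast markers, at 2.03%, 3.32%, 3.78% and 2.68% against 5.10%, 6.08%, 7.25% and 5.48%.

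Class means of the 4 libraries were tested with limma on log2(mean + 0.01) with the library as a block, and p-values were adjusted over 6831 genes by the Benjamini-Hochberg method. The libraries stand in for replicates, so the test asks for a difference shared by the 4 ages. As a check on the classes, *puc* had 0.631, 0.618, 0.478 and 0.790 UMIs per 10000 in Mmp1-positive cells on days 4, 5, 8 and 14, against 0.181, 0.188, 0.218 and 0.445 in Mmp1-negative cells. Its log2 ratio was 1.33 ± 0.15 (SE, n = 4 libraries), with a limma adjusted p of 0.00172.

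*Dronc*, *p53*, *hid* and *Drice* were higher in Mmp1-positive cells, *rpr* was lower, and *Dark* and *Dcp-1* did not pass the test. That is 4 of 7 members higher and 1 lower at a limma adjusted p under 0.05, against 19.9% of all genes higher and 13.2% lower. With ribosomal protein genes left out of the total, the calls over all genes were 1003 higher and 1930 lower in place of 1356 higher and 903 lower, and those over the members were 4 higher and 1 lower under both scalings.

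*Dronc* had 0.128, 0.146, 0.218 and 0.256 UMIs per 10000 in Mmp1-positive cells on days 4, 5, 8 and 14, against 0.0733, 0.0764, 0.125 and 0.186 in Mmp1-negative cells. It was higher in all 4 libraries, as were 27.2% of the genes tested, by 0.69 ± 0.07 on the log2 scale (SE, n = 4), or 1.62-fold, with a limma adjusted p of 0.00146. *p53* had 0.195, 0.181, 0.137 and 0.131 against 0.104, 0.0933, 0.0945 and 0.101 UMIs per 10000 in Mmp1-negative cells. The *p53* levels of Mmp1-negative cells thus lay within a narrow band at every age, and those of Mmp1-positive cells were all above it. Its log2 ratio was 0.64 ± 0.10, or 1.56-fold, with a limma adjusted p of 0.00442.

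*hid* had 0.812, 0.635, 0.512 and 1.02 UMIs per 10000 in Mmp1-positive cells, against 0.456, 0.393, 0.386 and 0.914 in Mmp1-negative cells. The difference was 0.83 on day 4 (counting half-width 0.08), 0.69 on day 5 (0.07), 0.41 on day 8 (0.11) and 0.15 on day 14 (0.13) on the log2 scale, smaller in each older library, a trend that was not tested. Over the 4 libraries it was 0.51 ± 0.11 (SE), or 1.43-fold, with a limma adjusted p of 0.0126. Without the day 8 library the limma adjusted p was 0.0508. The *puc* log2 ratio between the classes was also smaller in each older library, at 1.80, 1.72, 1.14 and 0.83 on days 4, 5, 8 and 14. The *Mmp1* mean of Mmp1-positive cells was 2.33, 2.78, 1.71 and 1.53 UMIs per 10000 at those ages. What part this had in the smaller *hid* difference was not tested.

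*Drice* had 0.413, 0.454, 0.422 and 0.348 UMIs per 10000 in Mmp1-positive cells, against 0.273, 0.313, 0.331 and 0.333 in Mmp1-negative cells. The classes were furthest apart on days 4 and 5 and differed by 0.06 on day 14, within its counting half-width of 0.21. The log2 ratio was 0.38 ± 0.09 (SE, n = 4), or 1.30-fold, with a limma adjusted p of 0.0183. The call was lost without day 4 (0.0682), without day 5 (0.0760) and without day 8 (0.0746).

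*rpr* had 0.864, 0.692, 0.776 and 1.45 UMIs per 10000 in Mmp1-positive cells, against 0.986, 0.888, 0.895 and 1.46 in Mmp1-negative cells. It was lower in all 4 libraries, as were 23.3% of the genes tested. Its log2 ratio was -0.36 on day 5 (half-width 0.06) and -0.01 on day 14 (0.10). Over the 4 libraries it was -0.19 ± 0.06 (SE), or 0.877-fold, with a limma adjusted p of 0.0481. This call did not survive leaving out day 4 (limma adjusted p 0.114), day 5 (0.214) or day 8 (0.161). *rpr* and *hid*, both death inducers, therefore lay on opposite sides of this contrast.

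*Dcp-1* had 0.238, 0.263, 0.322 and 0.453 UMIs per 10000 in Mmp1-positive cells, against 0.245, 0.231, 0.328 and 0.478 in Mmp1-negative cells, higher in 1 of 4 libraries. Its log2 ratio was 0.01 ± 0.06 (SE), with a limma adjusted p of 0.918. *Dark* had 0.0315, 0.0322, 0.0459 and 0.0609 against 0.0278, 0.0306, 0.0314 and 0.0499 UMIs per 10000 in Mmp1-negative cells. It was higher in 4 of 4 libraries, with a log2 ratio of 0.22 ± 0.09 (SE) and a limma adjusted p of 0.109.

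**Figure D2:**
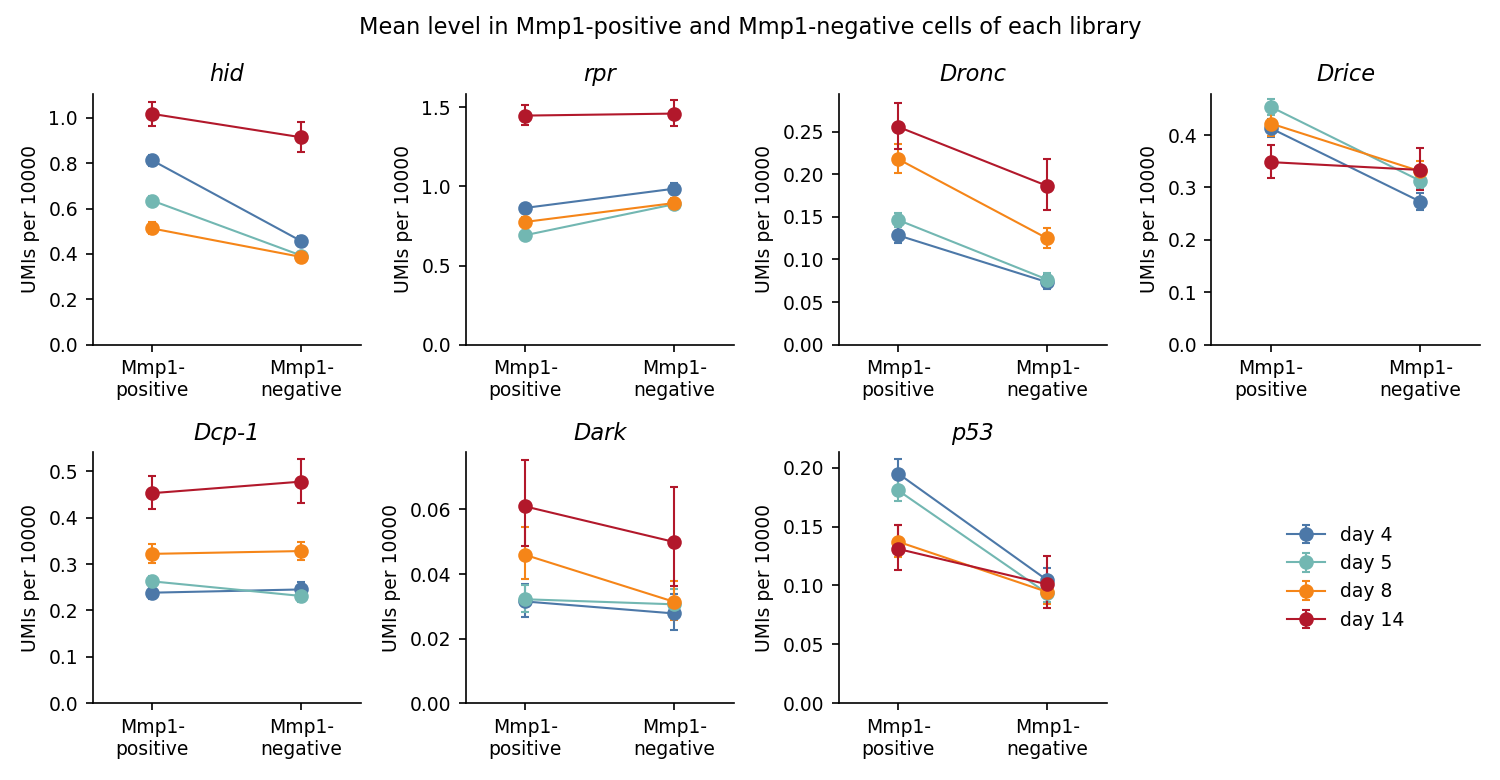
Mean UMIs per 10000 of each gene (y axis, from 0) in the Mmp1-positive cells (left) and the Mmp1-negative cells (right) of each library; lines join the classes of 1 library and bars are 95% Poisson intervals. *Dronc* and *p53* slope down to the Mmp1-negative cells at every age, *rpr* slopes up at days 4, 5 and 8, and *Dcp-1* is nearly level.

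The same differences were measured at equal depth. With every cell thinned to 12000 UMIs before it was classed, the log2 ratios were 0.78 for *Dronc*, 0.72 for *p53*, 0.65 for *hid* and 0.47 for *Drice*, and -0.21 for *rpr*, with limma adjusted p-values of 0.00137, 0.00213, 0.00584, 0.00255 and 0.0400. Without cells with myoblast markers the log2 ratios were 0.69, 0.64, 0.47, 0.36 and -0.22 for the same genes. With cells classed by *puc* in place of *Mmp1*, a comparison chosen after seeing the data, *hid* had 0.68, *p53* 0.58 and *Dronc* 0.50 (limma adjusted p 0.00406, 0.00912 and 0.0131). *rpr* then had -0.01 and *Drice* 0.30, and neither passed (limma adjusted p 0.914 and 0.0604). That made 3 of 7 members higher and 0 lower by limma, against 19.6% and 12.8% of all genes.

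**Figure D3:**
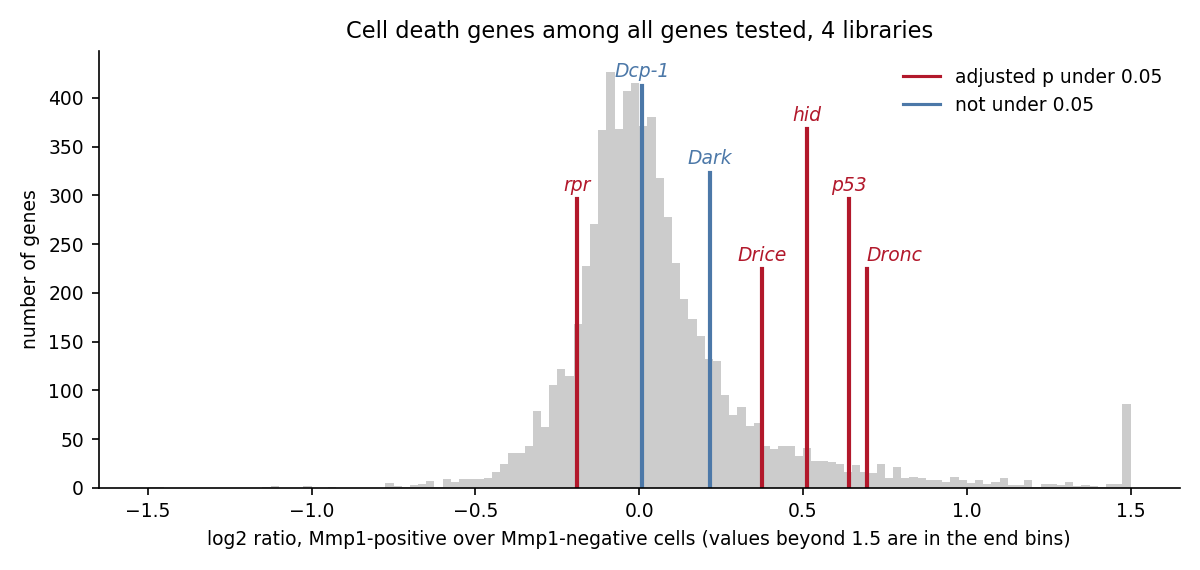
Number of genes (y axis) by log2 ratio of Mmp1-positive over Mmp1-negative cells (x axis) for the 6831 genes tested in 4 libraries, with the 7 cell death genes as lines; line height only keeps the names apart. *Dronc* at 0.69, *p53* at 0.64, *hid* at 0.51 and *Drice* at 0.38 lie in the right tail, *rpr* at -0.19 lies left of the bulk, and *Dcp-1* at 0.01 lies in its middle.

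Graded by the *Mmp1* level of the cell, *hid* on day 4 had 0.456 UMIs per 10000 in cells with none, 0.568 in cells with under 2 *Mmp1* UMIs per 10000, 1.18 in cells with 2 to under 5, and 1.70 in cells with 5 or more. On day 5 the 4 levels were 0.393, 0.465, 0.780 and 1.22, and on day 8 they were 0.386, 0.465, 0.542 and 1.000. Each step was upward at these ages. On day 14 the levels were 0.914, 1.03, 1.09 and 0.693 (0.519 to 0.906), so the 37 cells with most *Mmp1* had the least *hid*, from 53 UMIs. In those 37 cells the 8 epithelium markers summed to 11.9 UMIs per 10000 and the tracheal markers to 0.166, against 18.2 and 0.0712 in Mmp1-negative cells, and their part in the *hid* value was not tested.

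*rpr* was lower in each further bin on days 4, 5 and 8, with 0.986, 0.918, 0.830 and 0.616 UMIs per 10000 on day 4, 0.888, 0.793, 0.471 and 0.457 on day 5, and 0.895, 0.856, 0.479 and 0.367 on day 8. On day 14 it had 1.46, 1.51, 1.27 and 0.968. Set against Mmp1-negative cells, cells with 5 or more *Mmp1* UMIs per 10000 had a *rpr* log2 ratio of -0.87 ± 0.13 over the 4 libraries (SE, limma adjusted p 0.00195). That is a larger difference than with all Mmp1-positive cells, and in this comparison 33.0% of all genes were lower and 22.4% higher.

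*Dronc* was higher in each further bin at every age, with 0.0733, 0.0985, 0.175 and 0.234 UMIs per 10000 on day 4 and 0.186, 0.232, 0.346 and 0.365 on day 14. Between the cells with most and with no *Mmp1* its log2 ratio was 1.50 ± 0.16 (SE, limma adjusted p 0.000674). *Drice* had 0.723, 0.771, 0.688 and 0.516 UMIs per 10000 in the cells with most *Mmp1* on days 4, 5, 8 and 14, against the Mmp1-negative values above, with a log2 ratio of 1.07 ± 0.14 (limma adjusted p 0.00130). *p53* had 0.374, 0.347, 0.290 and 0.115 in those cells, where the last value rests on 10 UMIs, and a log2 ratio of 1.31 ± 0.28 (limma adjusted p 0.00841). *hid* had 1.11 ± 0.36 (limma adjusted p 0.0382), a value that the libraries did not all share. Its log2 ratio was 1.90, 1.63 and 1.37 on days 4, 5 and 8, but -0.40 on day 14 (counting half-width 0.40).

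**Figure D4:**
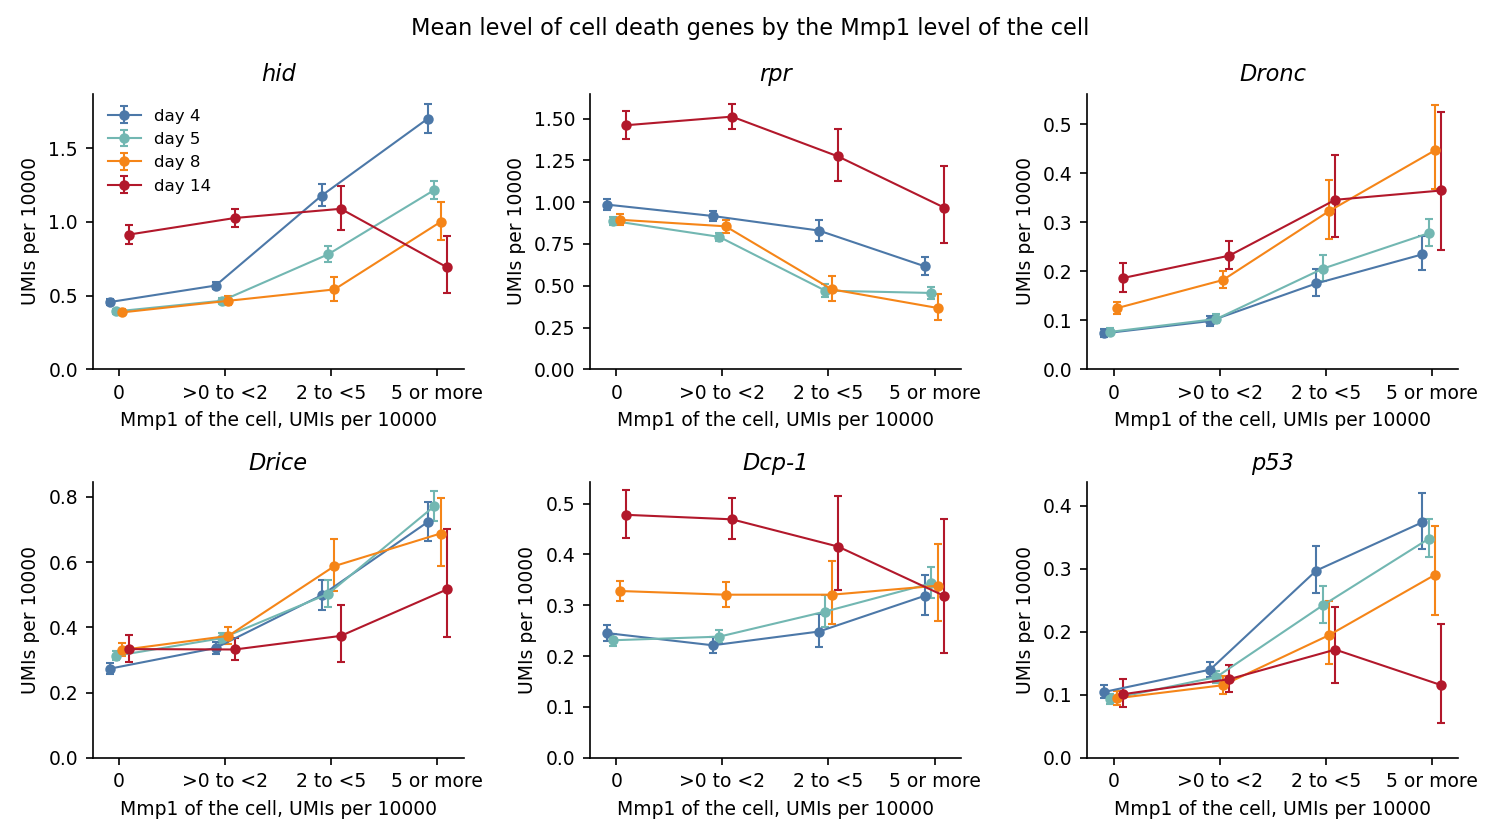
Mean UMIs per 10000 of 6 cell death genes (y axis, from 0) by the *Mmp1* level of the cell (x axis, UMIs per 10000) in each library; bars are 95% Poisson intervals. *hid*, *Dronc*, *Drice* and *p53* climb with *Mmp1* on days 4, 5 and 8 while *rpr* declines, and on day 14 *hid* ends at 0.693 in the highest bin.

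The age course also differed between the classes of cell. Day 14 over day 4 gave 0.32 for *hid* in Mmp1-positive cells and 1.00 in Mmp1-negative cells, and 0.74 and 0.57 for *rpr*. *Drice* gave -0.24 in Mmp1-positive cells and 0.29 in Mmp1-negative cells. *p53* gave -0.57 in Mmp1-positive cells and -0.05 in Mmp1-negative cells, and *Dronc* gave 0.99 and 1.34. These are values of 1 library per age and were not tested. The classes were not alike on days 4 and 14. *puc* had 0.181 and 0.445 UMIs per 10000 in Mmp1-negative cells on those days, and 0.421 and 0.654 over all cells. Mmp1-positive cells were 53.4% and 60.5% of cells. In bulk RNA of separate samples, the study reported that *puc* and *Mmp1* fell with time.

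Within single cells, *rpr* was found more often beside *hid* than without it. Among thinned cells, *rpr* was present in 59.7%, 56.6%, 64.9% and 77.8% of *hid*-positive cells on days 4, 5, 8 and 14, against 52.1%, 46.8%, 47.9% and 60.9% of *hid*-negative cells. Pearson's r between them over thinned cells was 0.12 on days 4 and 5, 0.22 on day 8 and 0.24 on day 14. The other members called higher in Mmp1-positive cells differed less by *hid*. For *Drice* the share in *hid*-positive less that in *hid*-negative cells was 3.62, 7.34, 1.48 and 0.86 percentage points at the same ages. It was 3.11, 0.71, -0.32 and 2.14 for *Dronc*, and 4.66, 4.92, 1.68 and 3.13 for *p53*. *Drice* was present in 42.6%, 41.4%, 39.6% and 37.0% of *Dronc*-positive cells, against 33.2%, 35.7%, 34.2% and 30.7% of *Dronc*-negative cells. *Drice* was present in 32.6%, 34.3%, 34.7% and 29.7% of *rpr*-positive cells, against 36.3%, 38.7%, 35.6% and 38.1% of *rpr*-negative cells. *Dcp-1* was present in 24.3%, 26.2%, 32.1% and 41.7% of *Drice*-positive cells and in 24.0%, 24.7%, 30.2% and 41.4% of *Drice*-negative cells, shares that differ by at most 1.92 percentage points. The cells of a library share 1 preparation, and cells with myoblast markers were included.

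By the mean Pearson's r of the deposited log values over the 4 libraries, among 5681 genes found in at least 10% of cells at every age, the genes most like *hid* were *Inx3*, a gap junction gene (0.28), *CG9689* (0.27) and *CG34417* (0.25). Those most like *rpr* were *nw* (0.35), *ab* (0.30) and *heph* (0.29), a different set. *Dronc* was most like *CG13117* (0.30), *cib* (0.28) and *Spn55B* (0.26), and *Drice* was most like *Act42A* (0.23), *tsr* (0.22) and *alphaTub84B* (0.22), which encode actin, cofilin and tubulin. *p53* was most like *CG17124*, *vir-1* and *Mmp1* itself, at 0.18 each. *Dcp-1* had no close partner, with *Gfat1* first at 0.08. Deeper cells hold more UMIs of most genes, and with cells thinned the first of each list dropped to 0.21 for *hid*, 0.30 for *rpr*, 0.22 for *Dronc*, 0.17 for *Drice* and 0.15 for *p53*. The order also moved with thinning. *CG9689* (0.23) then stood above *Inx3* for *hid*, *vir-1* was level with *CG17124* for *p53*, and *Inx3* (0.07) stood above *Gfat1* (0.04) for *Dcp-1*. In the order of r with each member, *Mmp1* was number 3 for *p53*, 12 for *hid*, 20 for *Drice*, 47 for *Dronc*, 781 for *Dcp-1* and 5383 for *rpr*.

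Genes that act on either side of the members were read from 7 lists. Of 6 inhibitors of apoptosis and their regulators, 1 was higher and 2 were lower in Mmp1-positive cells. Here and in the lists that follow, the shares to set beside such counts are 19.9% of all genes higher and 13.2% lower. *Diap1*, the main brake on the caspases, was lower, at -0.17 ± 0.04 on the log2 scale (SE, n = 4, limma adjusted p 0.0175), and so was *Det*, which encodes Deterin, the fly survivin, at -0.26 ± 0.06 (0.0155). *eff*, a ubiquitin-conjugating enzyme gene, was higher by 0.17 ± 0.03 (0.00844). With age, *Diap1* had 1.16, 1.15, 1.66 and 1.92 UMIs per 10000 on days 4, 5, 8 and 14, with a day 14/day 4 log2 ratio of 0.73 (half-width 0.05). The brake and 5 of the 7 members were thus both higher per 10000 on day 14.

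Of the other caspases, *Dredd* was the one tested and did not pass, at 0.18 ± 0.06 (limma adjusted p 0.0615). *Strica*, a caspase gene, had 0.0376 UMIs per 10000 on day 14 and 0.00750 on day 4, which is 2.32 on the log2 scale (half-width 0.45) from 85 UMIs on day 14 and 75 on day 4. *Decay* was not listed at any age. In the mitochondrial list 1 of 5 genes was higher, a share near the 19.9% of all genes. It was *Cyt-c-p*, a cytochrome c gene, at 0.29 ± 0.08 (0.0317), and *Debcl*, a Bcl-2 family gene, had 0.09 ± 0.05 (0.205). Of 3 genes of the caspase-activated nuclease and its relatives, *Drep1* was higher at 0.24 ± 0.07 (0.0300). *Drep2* had -0.25 ± 0.11 and *Drep4* had -0.14 ± 0.07, and neither passed (limma adjusted p 0.121 and 0.191).

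Of 3 engulfment genes, which act in clearing dying cells, 2 were at least 2-fold higher on day 14 than on day 4, against 19.3% of all genes. *ced-6*, an adaptor of the engulfment receptor Draper, had 0.150, 0.150, 0.330 and 0.789 UMIs per 10000 on days 4, 5, 8 and 14, with a day 14/day 4 log2 ratio of 2.39 (half-width 0.10). *drpr*, which encodes that receptor, had 0.120, 0.126, 0.190 and 0.326, with a ratio of 1.44 (0.14), and *crq*, a scavenger receptor gene, had a ratio of 0.84 (0.18). By class, *ced-6* was higher in Mmp1-positive cells by 0.77 ± 0.12 (SE, limma adjusted p 0.00418) and *crq* by 0.22 ± 0.06 (0.0413), while *drpr* had -0.10 ± 0.05 (0.161).

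In the list of DNA damage and p53-linked genes, 2 of 8 tested were higher and 2 lower, against 19.9% and 13.2% of all genes. *Corp*, a target and regulator of p53, was higher by 2.03 ± 0.17 (SE), or 4.07-fold, in all 4 libraries, with a limma adjusted p of 0.000821, the widest difference among all the lists. *Xrp1*, which encodes a stress-response transcription factor, was higher by 0.19 ± 0.05 (0.0228). *lok* and *grp*, which encode the checkpoint kinases Chk2 and Chk1, were lower, at -0.27 ± 0.05 (0.0103) and -0.22 ± 0.04 (0.00979). With age, *Corp* had 0.141 UMIs per 10000 on day 14 and 0.0348 on day 4, or 2.02 on the log2 scale (half-width 0.21). *Xrp1* had 4.72 on day 14 and 1.60 on day 4, or 1.56 (0.04), while *p53* itself was lower on day 14.

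A list of 8 genes held genes of the TNF pathway together with *Fadd* and *imd*, which belong to the Imd immune pathway. In it 3 genes were higher and 1 was lower in Mmp1-positive cells, against 19.9% and 13.2% of all genes. *grnd*, a TNF receptor gene, was higher by 0.37 ± 0.07 (SE, limma adjusted p 0.00956). So were *Fadd*, an adaptor gene, by 0.53 ± 0.07 (0.00291) and *imd* by 0.33 ± 0.09 (0.0318). *Traf4*, *Traf6* and *Tak1* did not pass (limma adjusted p 0.0600, 0.793 and 0.104). *wgn*, the gene of the other TNF receptor, was lower, at -0.59 ± 0.07 (0.00165). The ligand gene *egr* had 0.09 ± 0.24 (0.810). The receptors also parted by age, with a day 14/day 4 log2 ratio of 2.12 for *wgn* (half-width 0.22) and 0.37 for *grnd* (0.06).

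**Figure D5:**
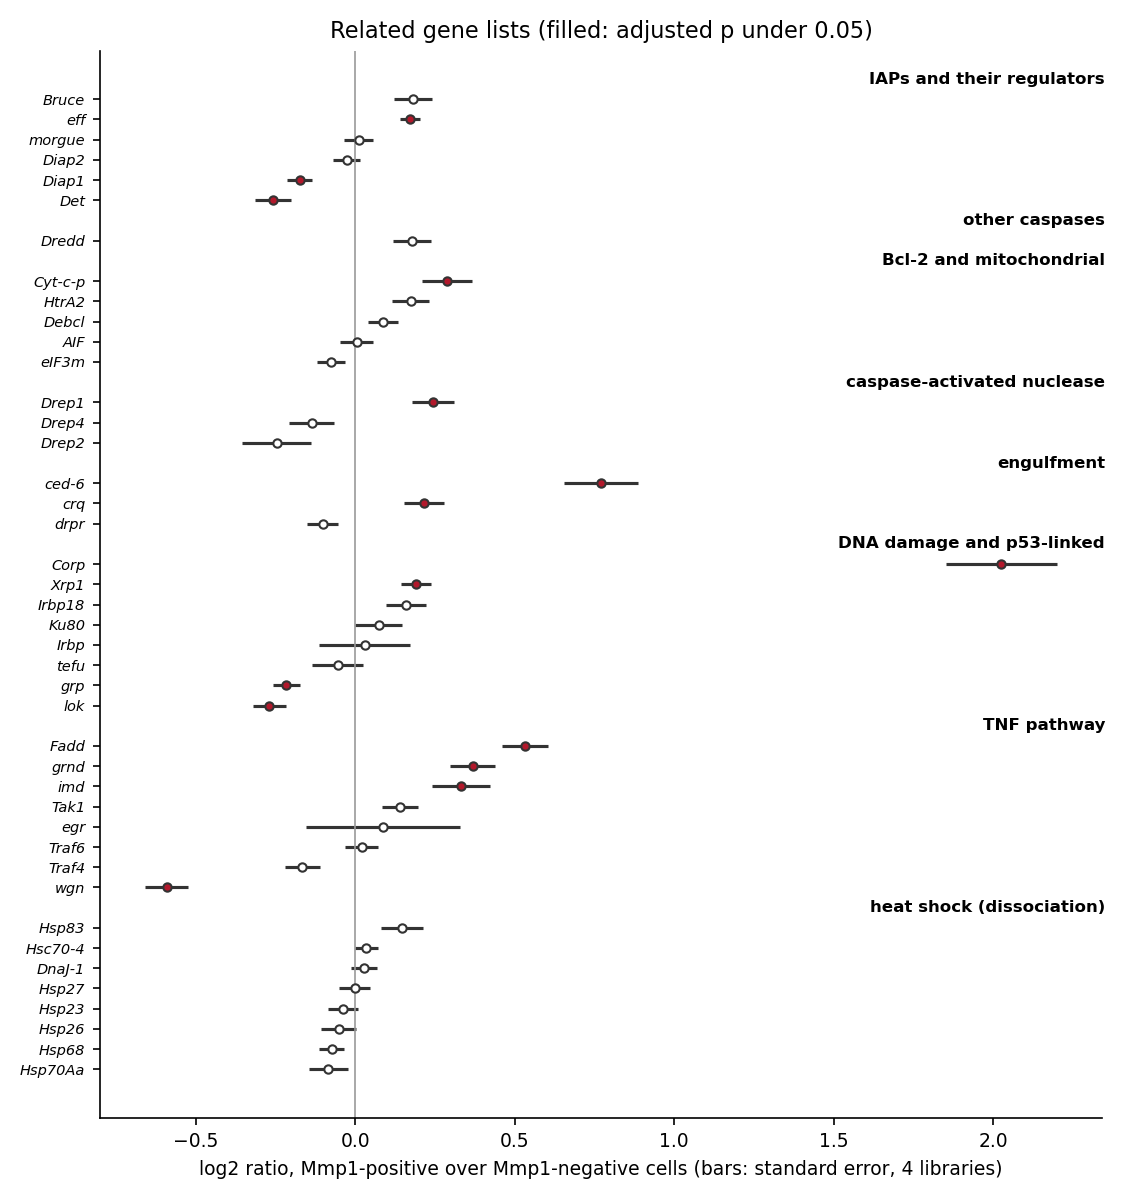
Log2 ratio of Mmp1-positive over Mmp1-negative cells (x axis) for each tested gene of the related lists (rows), over 4 libraries; bars are standard errors and filled points have a limma adjusted p under 0.05. *Corp* at 2.03 lies far right of the rest, *ced-6* at 0.77 and *Fadd* at 0.53 follow, *wgn* at -0.59 lies furthest left, and no heat shock gene is filled.

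Heat shock genes, which dissociation at a raised temperature can switch on, were read beside the members. None of the 8 tested passed in the *Mmp1* contrast, with 8 values from -0.08 to 0.15 and limma adjusted p-values from 0.128 to 0.978. By age, 7 of the 9 listed in all files were at least 2-fold higher on day 14 than day 4, against 19.3% of all genes, and their median log2 ratio was 1.84 beside 0.66 for the members. The heat shock sum was highest on day 14, as were *hid*, *rpr*, *Dronc*, *Dcp-1* and *Dark*, and day 14 is 1 library. It was 63.5, 82.9 and 73.5 UMIs per 10000 on days 4, 5 and 8, where *hid* was lower at each later age. The part of the heat shock sum in the day 14 values was not tested.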

How the data were processed

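The authors mapped the reads and counted UMIs with Cell Ranger, and normalised them in Seurat, so that a deposited value is the natural log of 1 plus a gene's UMIs per 10000 UMIs of the cell. For these libraries the sources used here do not give the Cell Ranger version, genome build, strand setting or cell filters. Files were mapped to groups by the age in the labels. Values were taken back to the linear scale, and UMIs were recovered by dividing by each cell's lowest value, with 100% of values within 0.001 of whole. The most genes in any cell were 3988 to 3998 per library, and no doublet caller was run.

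Levels were means over cells. Poisson and Clopper-Pearson intervals at 95% and the half-widths of log2 ratios (normal approximation on UMI sums) cover counting error only. Thinning to 12000 UMIs left out 355 cells on day 4, 953 on day 5 and 0 on days 8 and 14. The *Mmp1* contrast used limma 3.58.1 (R 4.3.3, eBayes with trend) on log2 of 8 class means plus 0.01, for genes in all 4 files with a mean of at least 0.02. *Mmp1* was left out of it. The procedure was tested on simulated data. Python 3.11.15, numpy 2.4.6, scipy 1.17.1 and pandas 2.3.3 were used.

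The members and lists were chosen with earlier results of these data known. Besides the members, *Mmp1* and *puc*, up to 4 genes per list with the largest age ratios or *Mmp1* contrasts were named, and the 3 genes most correlated with each member found in at least 10% of cells. *Tango7* was matched as *eIF3m*. The RefSeq and Ensembl tables used here gave names and positions, and no sequence was printed. Alternatives covered pooling, scaling, thinning, pseudocount, filter, block, classes and left-out libraries.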

Additional observations from a re-analysis of the deposited data

Results flagged for a closer look

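*Dcp-1* stood out because its difference between cells with at least 5 *Mmp1* UMIs per 10000 and Mmp1-negative cells had opposite signs in different libraries. The log2 ratio was -0.585 on day 14 (counting half-width 0.58, from 25 UMIs in 37 cells), against 0.38 on day 4 (0.20) and 0.57 on day 5 (0.15). The difference between the ages was not tested, and the half-width on day 14 nearly reached the value.

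*skl* was listed on days 8 and 14 only, outside the comparisons over all 4 libraries, with 12 UMIs on day 14 and 8 on day 8. A count of 0 would allow up to 3 UMIs. Of the 12 on day 14, 7 were in cells with myoblast markers, and 4 of those 7 were in a single cell.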

How the results depend on the processing

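The *Mmp1* contrast kept its direction for *hid*, *rpr*, *Dronc*, *Drice*, *Dark* and *p53* under all 13 alternatives run for each. *Dcp-1* reversed to -0.080 with scaling outside ribosomal protein genes and to -0.047 without day 5, in a range of -0.047 to 0.037 with a library left out. Members called higher, 4 in the fit reported, were 0 without the library block (no replicate block) and 2 (without day 8) to 4 when each library was left out. Members called lower, 1 as reported, were 0 without the block, 0 with *puc* classes, and 0 (without day 4, 5 or 8) to 1 with a library left out. Over all genes, 1356 higher and 903 lower became 140 and 1 without the block. Leaving out a library gave 769 to 1553 higher (769 without day 5, 785 without day 8) and 269 to 1014 lower (545 without day 4, 274 without day 5, 269 without day 8). Genes lower were 2257 for the cells with most *Mmp1* and 1930 with scaling outside ribosomal protein genes. The limma adjusted p without the block was 0.0723 for *p53*, 0.183 for *Drice*, 0.519 for *Dronc*, 0.736 for *hid* and 1.00 for *rpr*. The block holds libraries of different ages, so without it the age differences enter the error. By age, *hid* reversed to -0.22 for day 8 over day 5 and *Drice* to 0.29 in Mmp1-negative cells. The median of the Bcl-2 and mitochondrial list, 0.10, became -0.096 with scaling outside ribosomal protein genes and -0.094 relative to the median gene. With 1 library per age no age difference could be tested, and *Dark*, *skl* and cells with most *Mmp1* on day 14 rest on few UMIs.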
